A study of Mus musculus with 28 samples.

Results

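The collagen genes were followed through the reprogramming of mouse fibroblasts into pluripotent stem cells, with and without a K36M histone H3. Members were all rows of the count table whose symbol has the form Col, a type number, a and a chain number, which gave 43 of 37620 genes. By the structure of the protein they were grouped as 11 fibrillar genes (types I, II, III, V, XI, XXIV and XXVII), 6 basement membrane genes (the chains of type IV) and 26 others. The others comprised 6 genes of type VI, 3 of the hexagonal networks of types VIII and X, 9 of fibril-associated types (FACIT collagens), 4 transmembrane genes, 2 multiplexins (types XV and XVIII), 1 anchoring fibril gene (type VII) and 1 gene of type XXVIII. Col21a1 and Col26a1 have no row under these symbols and were not analysed here.

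A collagen is a triple helix of chains that are made in the endoplasmic reticulum, hydroxylated on proline and lysine, folded with the help of dedicated chaperones, secreted, trimmed and cross-linked. Fibroblasts are the main source of the fibrillar types I, III and V, which form the fibres of connective tissue, and of the type VI filaments and the FACIT collagens that sit on those fibres. Type IV chains form the sheet under epithelia and around vessels, and multiplexins link that sheet to its surroundings. Loss of the fibroblast programme, collagens included, is one of the first steps known when fibroblasts are reprogrammed with Oct4, Klf4, Sox2 and Myc (OKSM).

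Poly(A) RNA was sequenced from 2 libraries in each of 14 groups, WT or K36M at 7 stages. The stages were mouse embryonic fibroblasts (MEFs) grown in DMEM with serum (d0), reprogramming cells in AGi medium sampled at d2, d4, d6 and d8, passaged induced pluripotent stem cells (iPSCs) in S/L medium, and MEFs without OKSM (noOKSM). Medium and stage cannot be told apart between d0, the reprogramming days and iPSCs. All values set side by side come from 1 count table. K36M is a lysine-to-methionine change in the histone H3 tail, and the library names of the WT arm carry H3_3. The labels give neither the H3 gene that carries the change, nor how it and OKSM were delivered, nor whether iPSCs are clones or replicates are separate cultures. P-values therefore measure no more than how far these libraries differ, which may be technical variation, and a single amino acid change leaves no trace in gene counts, so the genotype could not be checked in the data. Inducible transgenes are often placed next to Col1a1 in mouse strains, and the labels do not say whether that was done here.

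Total counts in genes ran from 17507521 (K36M iPSC replicate 1) to 35622279 (WT noOKSM replicate 1). Levels are CPM, read counts scaled to a common library size after TMM scaling, and each value is 1 library, given as replicate 1 and then replicate 2. Fibroblast markers fitted the labels: the 12 of them summed to 18700 and 21420 CPM in WT d0 and 21660 and 22030 CPM in K36M d0, against 5459 and 5178 CPM in WT d8 and 1137 and 1132 CPM in K36M d8. The 8 pluripotency markers summed to at most 1.23 CPM in a d0 library and to at least 4818 CPM in an iPSC library. The K36M d6 libraries stood apart from each other, with pluripotency sums of 1601 and 904 CPM and fibroblast sums of 978 and 631 CPM. WT iPSC replicate 2 carried more of Col1a1, Col1a2, Col3a1 and Col5a1 than replicate 1, and K36M noOKSM replicate 1 more than its replicate 2. In such bulk samples fewer cells of a type and less RNA per cell cannot be told apart.

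Collagen RNA was a large part of the fibroblast transcriptome and fell within 2 days of reprogramming. The 43 genes held 3.01% ± 0.444 (SD, n = 2) of all gene counts in WT d0 and 0.593% ± 0.0053 at d2, after which the WT share stayed between 0.447% and 0.593% up to d8. In iPSCs it was 0.245% ± 0.0632, and in WT noOKSM MEFs 2.79% ± 0.14. K36M MEFs began with 4.02% ± 0.0139 and went lower than WT on every reprogramming day, to 0.447% ± 0.00289 at d2, 0.251% ± 0.0056 at d4, then 0.127% ± 0.0118 at d6 and 0.174% ± 0.000822 at d8. K36M iPSCs (0.283% ± 0.0313) and K36M noOKSM MEFs (3.35% ± 0.634) were closer to WT: the iPSC libraries of the genotypes overlapped, and both K36M noOKSM libraries lay above both of WT. These shares are descriptions and carry no test.

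The make-up of that RNA changed with the genotype. Fibrillar genes held 74.5% ± 0.27 of the collagen counts in WT d0, 40.0% ± 0.0495 at d4 and 47.4% ± 0.891 at d8. In K36M the fibrillar part was 69.5% ± 0.209 at d0, 18.4% ± 1.01 at d4 and 10.3% ± 1.01 at d8. Type IV genes then held 50.1% ± 0.741 of K36M collagen counts at d8, against 28.8% ± 0.847 in WT. In iPSCs the fibrillar part was 54.2% ± 3.39 in WT and 55.5% ± 1.04 in K36M.

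**Figure D1:**
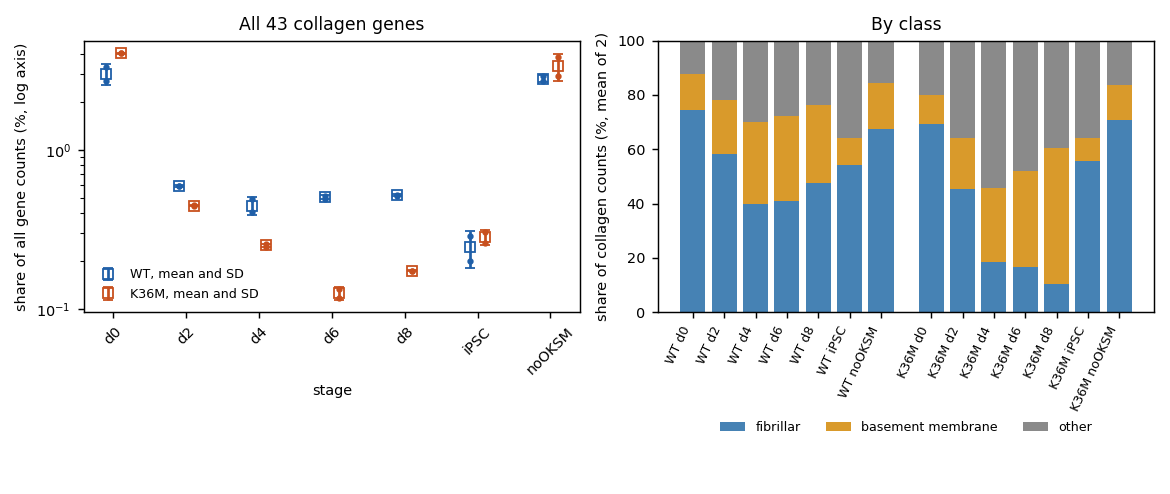
Left, share of all gene counts held by the 43 collagen genes (%, log axis) by stage, with dots for libraries and squares with bars for mean and SD of 2. Right, share of collagen counts (%, mean of 2 libraries) by class; the fibrillar part of K36M shrinks to 10.3% at d8 and is 55.5% in iPSCs.

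**Figure D2:**
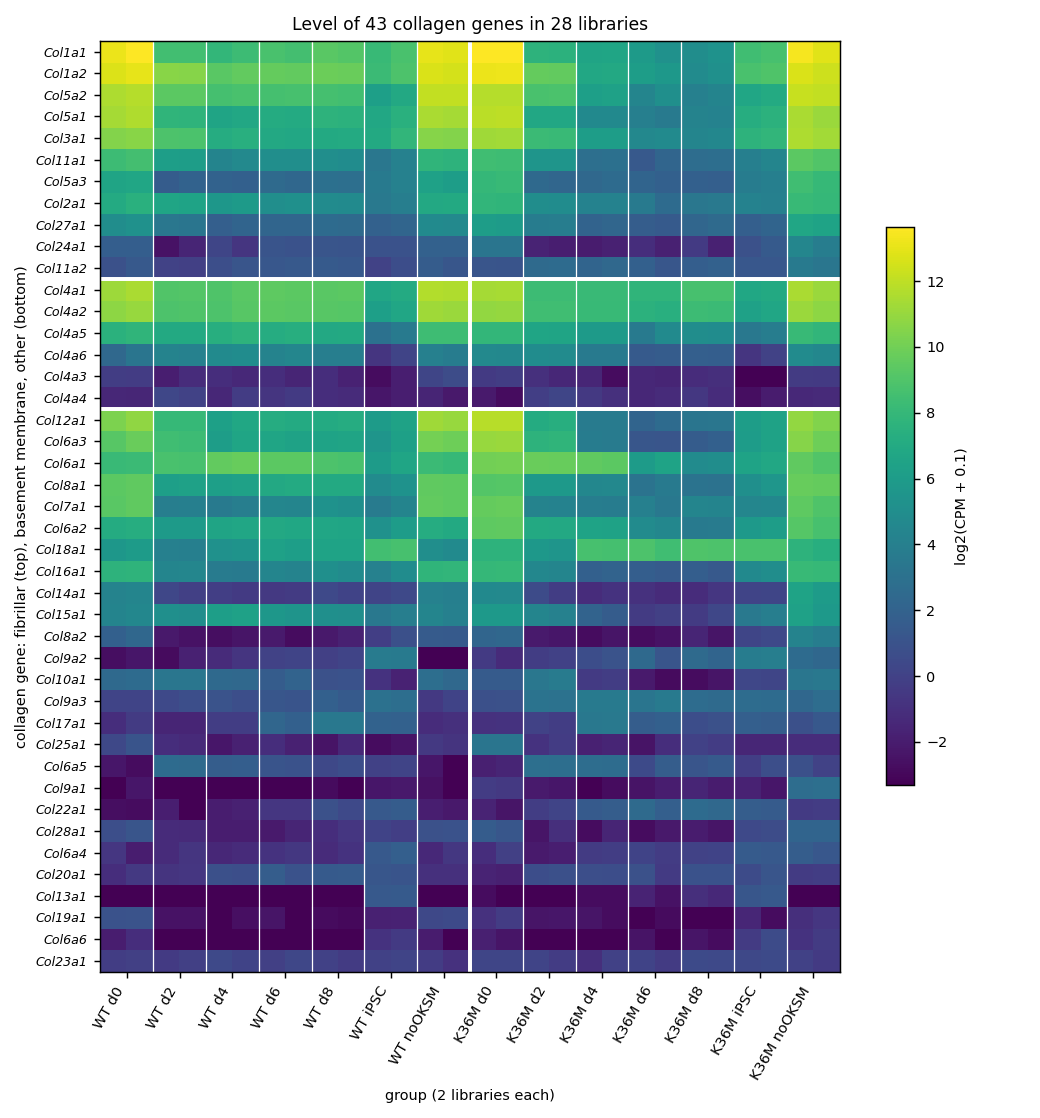
Level of each of the 43 genes, log2(CPM + 0.1), in each of the 28 libraries, genes grouped by class and ordered by their highest level. Col1a1 is highest in the MEF libraries, up to 12810 CPM, while Col18a1 is at 351 CPM or more in all iPSC libraries and in K36M from d4 on.

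In WT cells the fibrillar genes fell at d2 as a class. Of the 11, 11 were lower at d2 than at d0 and 0 higher, with a median log2 fold change of -2.31 beside 0.00 over all 16932 genes tested; 30.7% of all genes were called lower and 27.1% higher. Over all 43 collagens, 29 were lower and 6 higher at d2. Col1a1 at chr11:94797538-94814356 (mm9, plus strand) encodes the main chain of type I collagen. In WT its level was 9075 and 12290 at d0, 360.2 and 359 at d2, 242 and 312 at d4, 441 and 389 at d6, 625 and 557 at d8, 279.9 and 428 in iPSCs and 8327 and 7445 in noOKSM MEFs. That is a fall of 4.89 on the log2 scale by d2 (SE 0.24, adjusted p = 1.1e-13), and the d2 libraries lie far below both d0 libraries.

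Col1a2, the second type I chain (chr6:4454814-4491543, plus strand), fell less steeply. WT levels of Col1a2 were 7006 and 8271 at d0, 1561 and 1523 at d2, 642 and 776 at d4, 808 and 767 at d6, 915 and 892 at d8, 308 and 486 in iPSCs and 6577 and 5996 in noOKSM MEFs, with a log2 fold change of -2.31 ± 0.18 (SE), adjusted p = 1.2e-10 at d2. Col3a1 (chr1:45368383-45406551, plus strand) encodes type III collagen of loose and elastic tissues. WT levels of Col3a1 were 1446 and 1585 at d0, 469 and 466 at d2, 144 and 167 at d4, 120 and 116 at d6, 129 and 134 at d8, 128 and 232 in iPSCs and 1547 and 1446 in noOKSM MEFs. It fell by d2, was lower again at d4, held between 116 and 167 CPM up to d8, and differed most between the libraries in iPSCs.

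Col5a1 and Col5a2 encode type V chains, which start type I fibrils and set their width. The WT level of Col5a1 (chr2:27741945-27895034, plus strand) was 2610 and 3171 at d0, 223 and 211 at d2, 96.1 and 118 at d4, 139.9 and 132 at d6, 199.8 and 191 at d8, 116 and 174 in iPSCs and 2919 and 2640 in noOKSM MEFs. The WT level of Col5a2 (chr1:45431166-45560127, minus strand, the neighbour of Col3a1) was 3077 and 3454 at d0, 652 and 662 at d2, 391 and 446 at d4, 390.2 and 424 at d6, 391 and 368 at d8, 75.4 and 119 in iPSCs and 4328 and 4320 in noOKSM MEFs. Col5a1 was at its lowest mean at d4 and was higher in both libraries of d8 than in those of d4, whereas Col5a2 held between 368 and 446 CPM from d4 to d8 and was lower again in iPSCs. The log2 fold change from d0 to iPSC was -4.32 ± 0.18 (SE), adjusted p = 7.6e-16 for Col5a1 and -5.07 ± 0.21 (SE), adjusted p = 6.4e-16 for Col5a2, the largest fall of the class.

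The later WT stages kept this picture. The class had 10 genes lower and 0 higher at d4, 10 and 0 at d6, 10 and 0 at d8 and 11 and 0 in iPSCs, always against WT d0 and with those libraries shared by all these comparisons. The Col24a1 calls ended without any single library compared at d6 (-0.80 to -0.69) and at d8 (-0.68 to -0.60). The Col11a2 call in iPSCs ended without WT d0 replicate 2 or WT iPSC replicate 1 (both -0.52). Library totals in place of TMM ended the iPSC calls of both genes. All 43 collagens gave 26 lower and 7 higher at d4 (all genes 29.1% and 28.3%), 25 and 10 at d6 (all genes 29.9% and 29.1%), 27 and 10 at d8 (all genes 31.4% and 32.7%), and 30 and 9 in iPSCs (all genes 37.4% and 40.1%). The class median log2 fold change was -3.28 at d4, -3.11 at d8 and -3.54 in iPSCs, beside 0.01, 0.06 and 0.08 over all genes. Scaling by library totals in place of TMM moved the median of all genes up, by 0.22 at d2, 0.29 at d4, then 0.35 at d6, 0.42 at d8 and 0.46 in iPSCs, and with it the split of all genes into higher and lower, to 6391 and 3952 at d2, 6823 and 3629 at d4, 7379 and 3349 at d6, 8038 and 3547 at d8 and 8385 and 4940 in iPSCs. The collagens were then 7 higher and 27 lower at d2, 11 and 24 at d8, and 9 and 27 in iPSCs. Col11a2 was the exception among fibrillar genes, with a WT level of 1.77 and 2.6 at d0, 0.939 and 0.849 at d2, 1.59 and 2.12 at d4, 2.39 and 2.55 at d6, 2.65 and 2.47 at d8, 0.902 and 1.53 in iPSCs and 2.9 and 2.26 in noOKSM MEFs. It fell at d2 (log2 fold change -1.29 ± 0.30 (SE), adjusted p = 0.00077) but did not pass the test at d4, d6 or d8.

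With K36M most fibrillar genes went lower than WT on every reprogramming day. At d2, 7 of the 11 were lower in K36M than in WT and 3 higher, at d4 8 and 2, at d6 9 and 0, and at d8 9 and 0. The class median log2 difference was -0.64, -1.61, -2.80 and -2.34 on these days, where the medians over all genes were 0.00, 0.02, 0.08 and 0.04. Over all genes 10.4%, 25.8%, 33.7% and 29.0% were lower in K36M on these days and 9.74%, 27.1%, 37.3% and 31.6% higher. Over the 43 collagens 13 were lower and 13 higher at d2, 18 and 9 at d4, 23 and 6 at d6, and 25 and 10 at d8. The d2 count was the least stable: of 26 calls, 15 were made without K36M d2 replicate 2, and 18 or 19 without any other of the d2 libraries.

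Col1a1 in K36M was 12810 and 12590 at d0, 199 and 192 at d2, 95 and 103 at d4, 59.7 and 38.7 at d6, 32.3 and 39.2 at d8, 355 and 415 in iPSCs and 10820 and 7610 in noOKSM MEFs. Both K36M libraries lay below both WT libraries on each of the 4 reprogramming days; at d0 both lay above them, and in iPSCs and noOKSM MEFs the genotypes overlapped. The log2 difference from WT was -0.88 ± 0.21 (SE), adjusted p = 0.0033 at d2, -1.49 ± 0.21 (SE), adjusted p = 3.3e-06 at d4, then -3.08 ± 0.22 (SE), adjusted p = 7.2e-11 at d6 and -4.05 ± 0.23 (SE), adjusted p = 2.6e-12 at d8. Col1a2 in K36M was 9013 and 9303 at d0, 787 and 764 at d2, 116 and 119 at d4, 70.1 and 53.3 at d6, 28.5 and 36.8 at d8, 430.3 and 512 in iPSCs and 6650 and 5125 in noOKSM MEFs. Its log2 difference reached -4.79 ± 0.20 (SE), adjusted p = 4.7e-15 at d8, and over d2 to d8 it was -3.04 ± 0.43 (SE), adjusted p = 3.8e-05, the largest fall of the class in that fit.

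Col3a1 began higher in K36M. Its K36M level was 2397 and 2459 at d0, 308 and 294 at d2, 69.8 and 69.8 at d4, 24.6 and 27.2 at d6, 20.6 and 22.6 at d8, 197 and 233 in iPSCs and 3075 and 2553 in noOKSM MEFs, a log2 difference from WT of 0.68 ± 0.16 (SE), adjusted p = 0.0051 at d0 and -0.64 ± 0.16 (SE), adjusted p = 0.0062 at d2. The genotypes did not overlap at either time, and their order turned within the first 2 days. The d0 call for Col3a1 ended without WT d0 replicate 1 (0.62, adjusted p = 0.081), and its d2 call without K36M d2 replicate 2 (-0.60, adjusted p = 0.062). Col5a1 in K36M was 3833 and 3934 at d0, 116 and 116 at d2, 27.1 and 27 at d4, 15.7 and 11.8 at d6, 19.3 and 18.3 at d8, 153 and 191 in iPSCs and 2876 and 2153 in noOKSM MEFs, and Col5a2 was 3526 and 3537 at d0, 444 and 450.3 at d2, 75.4 and 84.1 at d4, 20.7 and 34.7 at d6, 16.9 and 20.4 at d8, 107 and 131 in iPSCs and 4674 and 4278 in noOKSM MEFs. At d8 the log2 difference was -3.38 for Col5a1 (adjusted p = 3.2e-13) and -4.34 for Col5a2 (adjusted p = 5.2e-14). The smaller Col5a2 difference at d2 (-0.56, adjusted p = 0.027) ended without any 1 of the 4 libraries compared (-0.57 to -0.55). The 2 K36M d6 libraries differed in Col5a2 (20.7 and 34.7 CPM), and both were far below the WT d6 values of 390.2 and 424 CPM.

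Of the remaining fibrillar genes, Col2a1, Col11a1 and Col24a1 were lower in K36M on some or all days, while Col11a2, Col5a3 and Col27a1 were higher on some. Col2a1, the type II chain of cartilage, stood at 100.2 and 92.7 CPM in WT d2 and 31.1 and 30.2 CPM in K36M d2. It differed by -1.65 on the log2 scale at d2 and -1.39 at d8 (adjusted p = 4.5e-07 and 2.1e-06), and Col11a1 of type XI by -0.64 and -2.25 (adjusted p = 0.012 and 4.3e-09). Col24a1 differed by -2.08 at d4 and -2.34 at d8 (adjusted p = 0.0058 and 2.5e-05). Col11a2, by contrast, was 2.1 and 2.03 at d0, 5.8 and 6.02 at d2, 4.33 and 5.17 at d4, 3.51 and 2.21 at d6, 3.26 and 3.77 at d8, 2.28 and 2.36 in iPSCs and 12.8 and 9.98 in noOKSM MEFs in K36M. It was higher than WT at d2 (log2 difference 2.72 ± 0.26 (SE), adjusted p = 5.4e-08) and d4, and was the largest rise of the class over d2 to d8 (1.13 ± 0.29 (SE), adjusted p = 0.0043). Col5a3 was higher in K36M at d2 and d4 (log2 differences 0.61 and 0.56, adjusted p = 0.04 and 0.022) and lower at d8 (-1.08, adjusted p = 4.9e-05), and Col27a1 was higher at d2 (0.50, adjusted p = 0.0086). Several of these calls rested on single libraries: that for Col11a1 at d2 ended without any 1 of the 4 libraries compared (-0.66 to -0.62), that for Col24a1 at d4 ended without WT d4 replicate 1 (-1.61, adjusted p = 0.058), that for Col5a3 at d2 ended without K36M d2 replicate 1 (0.48, adjusted p = 0.3) or K36M d2 replicate 2 (0.71, adjusted p = 0.06) or WT d2 replicate 1 (0.42, adjusted p = 0.33), that for Col5a3 at d4 ended without K36M d4 replicate 2 (0.44, adjusted p = 0.17) or WT d4 replicate 1 (0.58, adjusted p = 0.052) or WT d4 replicate 2 (0.48, adjusted p = 0.15), that for Col27a1 at d2 ended without K36M d2 replicate 2 (0.46, adjusted p = 0.075) or WT d2 replicate 2 (0.43, adjusted p = 0.11).

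Over d2 to d8 together, 20 of the 36 collagens that passed the low count filter in that fit were lower in K36M and 6 higher, with 28.2% and 30.2% over all 15954 genes. Genes that pass such a filter only through the group where they are high had to differ, so this count stands as a description. Markers moved on the same days: the fibroblast sum was 8127 and 7832 CPM in WT d4 and 1435 and 1375 CPM in K36M d4, with all 12 markers measured and none at 0 in both libraries, and the epithelial sum of 10 markers was 224 and 200.2 against 2229 and 2250 CPM. Most of the fibroblast difference was in Vim, with means of 6518 CPM in WT d4 and 1017 CPM in K36M d4. Fn1, Prrx1, Thy1, Twist1, Twist2, Pdgfrb and Postn were lower in K36M d4 as well. Pdgfra (means of 0.736 and 1.08 CPM), Lum (0.0424 and 1.03 CPM) and Dcn (1.13 and 2.93 CPM) were higher, and S100a4 was alike (59.4 and 60.5 CPM). The part of these shifts in the collagen differences was not tested.

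**Figure D3:**
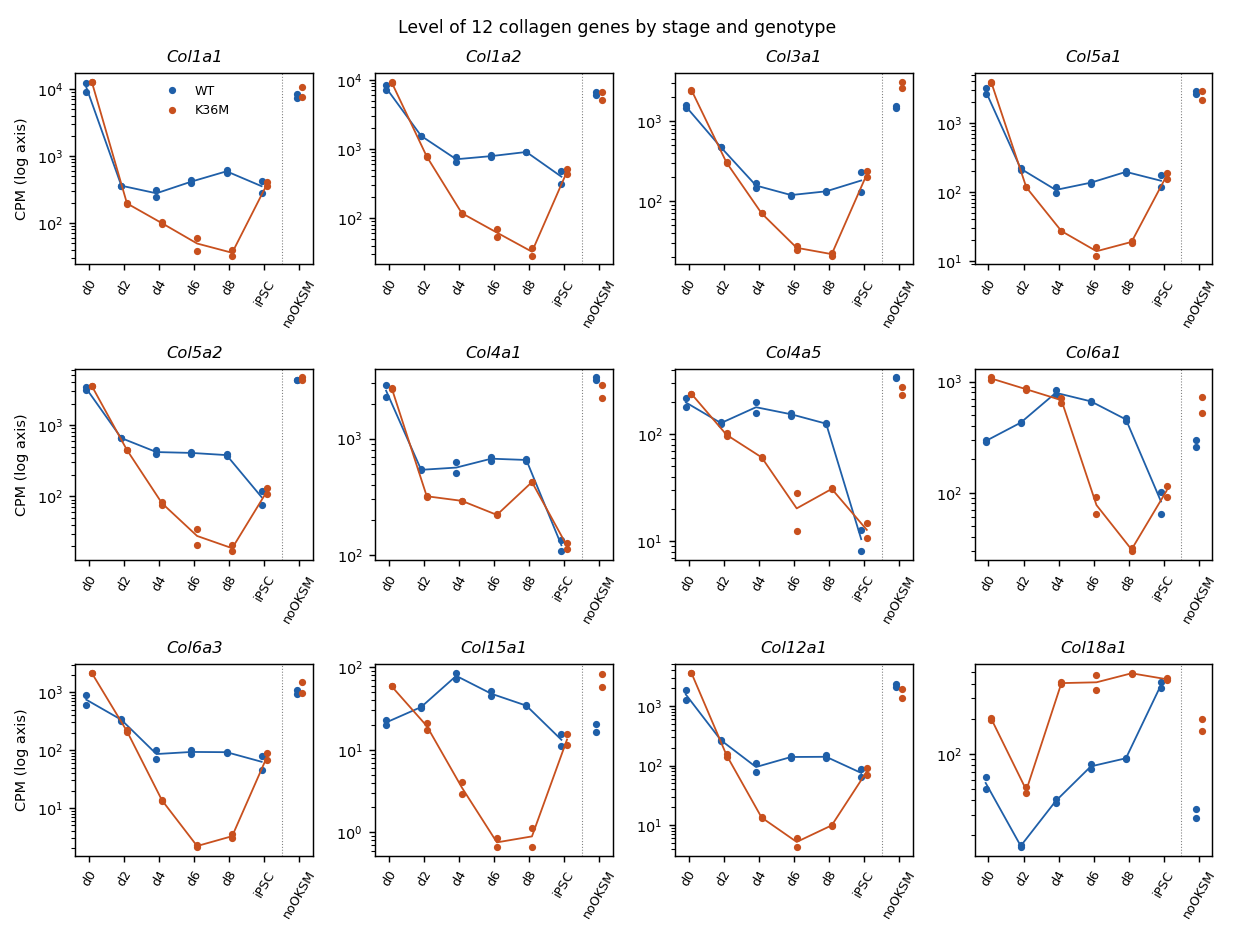
Level in CPM (log axis) of 12 collagen genes by stage, WT in blue and K36M in orange; dots are libraries, lines join group means from d0 to iPSC and noOKSM MEFs stand apart at the right. Fibrillar genes of K36M fall below WT from d2 to d8 and meet it again in iPSCs, Col6a1 and Col15a1 rise in WT, and Col18a1 is higher in K36M up to d8.

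The windows before the start sites of Col1a2 and Col3a1 are shown because these genes carry much of the fibrillar RNA and both fell in WT and further in K36M. Each line gives the 250 bases upstream of the start, from RefSeq (GRCm38.p6, plus strand), with matches to CCAAT, to TATAAA and to GGGCGG on either strand in capitals.
Col1a2 chr6:4505368-4505617: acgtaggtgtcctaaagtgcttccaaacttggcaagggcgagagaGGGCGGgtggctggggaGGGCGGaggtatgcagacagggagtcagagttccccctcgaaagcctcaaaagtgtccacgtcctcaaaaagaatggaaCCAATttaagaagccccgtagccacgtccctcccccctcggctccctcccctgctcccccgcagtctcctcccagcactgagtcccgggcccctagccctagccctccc
Col3a1 chr1:45311288-45311537: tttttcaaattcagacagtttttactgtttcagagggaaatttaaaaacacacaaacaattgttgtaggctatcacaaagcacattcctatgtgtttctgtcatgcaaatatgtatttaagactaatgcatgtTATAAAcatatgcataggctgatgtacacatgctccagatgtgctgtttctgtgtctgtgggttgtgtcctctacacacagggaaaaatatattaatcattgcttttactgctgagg
The Col1a2 window holds 1 CCAAT and 2 GGGCGG, and the Col3a1 window 1 TATAAA. Among 35 collagen genes with a window in the table (38 windows), CCAAT stood in 13 windows (34.2%, all 32851 windows 33.8%), TATAAA in 5 (13.2%, all 12.4%) and GGGCGG in 22 (57.9%, all 32.7%). A match is a string of letters and not a site. Col1a1, Col2a1, Col4a3, Col5a2, Col9a3, Col12a1, Col14a1 and Col22a1 have no window in the table.

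Type IV genes held a growing part of the collagen RNA in K36M from d0 to d8. Their share of all gene counts in K36M fell up to d6 and was higher again at d8 (0.0445% and 0.0874%). In WT their part of the collagen counts grew as well, from 13.1% at d0 to 31.3% at d6, and was 28.8% at d8. Col4a1 and Col4a2, which encode the chains of the common type IV network, fell in WT by d2 and were lower still in iPSCs. Col4a1 (chr8:11198423-11312826, minus strand) was 2296 and 2868 at d0, 532 and 544 at d2, 503 and 623 at d4, 695 and 648 at d6, 643 and 666 at d8, 107 and 135 in iPSCs and 3353 and 3163 in noOKSM MEFs in WT. In K36M Col4a1 was 2686 and 2746 at d0, 322 and 316 at d2, 291 and 292 at d4, 223 and 218 at d6, 423 and 422 at d8, 112 and 126 in iPSCs and 2871 and 2219 in noOKSM MEFs. Both K36M libraries lay below both WT libraries on all 4 reprogramming days. For Col4a1 the log2 difference was -0.75 ± 0.13 (SE), adjusted p = 0.00011 at d2, -1.61 ± 0.13 (SE), adjusted p = 2.1e-10 at d6 and -0.63 ± 0.13 (SE), adjusted p = 0.00016 at d8. The K36M level was higher in both d8 libraries than in both d6 libraries.

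Col4a2 (chr8:11312805-11449287, plus strand) followed it. Its WT level was 1698 and 2132 at d0, 489 and 492 at d2, 488 and 614 at d4, 669 and 618 at d6, 592 and 586 at d8, 77.8 and 106 in iPSCs and 2362 and 2226 in noOKSM MEFs, and its K36M level 1913 and 1967 at d0, 346 and 342 at d2, 279 and 274 at d4, 189.8 and 166 at d6, 319 and 305 at d8, 81.8 and 103 in iPSCs and 2191 and 1714 in noOKSM MEFs. The log2 difference was -1.85 ± 0.15 (SE), adjusted p = 1.9e-10 at d6 and -0.92 ± 0.14 (SE), adjusted p = 9.3e-06 at d8. The smaller difference at d2 (-0.51, adjusted p = 0.013), which is among the type IV calls of that day, ended without any 1 of the 4 libraries compared (-0.52 to -0.50). From d0 to iPSC the WT log2 fold change was -4.42 for Col4a1 (adjusted p = 9.6e-18), the largest fall of the class, and -4.38 for Col4a2 (adjusted p = 9.6e-17). The 2 genes lie head to head and overlap by 22 bases at their starts in GENCODE vM1 (mm9). That shared stretch is shown because it is the point from which both are read, in opposite directions (RefSeq, GRCm38.p6, plus strand, lower case throughout since no motif was searched in it).
Col4a1 and Col4a2 chr8:11312805-11312826: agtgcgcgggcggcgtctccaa
Col4a4 and Col4a3 start 71 bases apart on chromosome 1, and Col4a6 and Col4a5 1308 bases apart on chromosome X. Counts of Col4a1 and Col4a2 in the overlap depend on the strand setting, which is not given in the sources used here.

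Col4a5 (chrX:137909928-138123778, plus strand), a chain of the type IV network of kidney, skin and smooth muscle, kept its WT level at d4 and d6, where it did not pass the test against d0. WT levels of Col4a5 were 179 and 216 at d0, 125 and 129 at d2, 158 and 199 at d4, 148 and 159 at d6, 123 and 127 at d8, 8.07 and 12.9 in iPSCs and 335 and 338 in noOKSM MEFs. In K36M Col4a5 was 238 and 236 at d0, 102 and 95.6 at d2, 61.6 and 59.8 at d4, 12.5 and 28.1 at d6, 31.1 and 30.5 at d8, 10.8 and 14.7 in iPSCs and 274 and 232 in noOKSM MEFs, and both d6 libraries, though far apart from each other, lay below WT. For Col4a5 the log2 difference was -1.56 ± 0.23 (SE), adjusted p = 6.1e-06 at d4, -2.91 ± 0.24 (SE), adjusted p = 1.1e-09 at d6 and -1.73 ± 0.29 (SE), adjusted p = 0.00015 over d2 to d8, the largest fall of the class. At d2 it did not pass the test (-0.36, adjusted p = 0.29).

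Col4a6, which assembles with Col4a5, rose in WT during reprogramming. It stood at 5.26 and 9.39 CPM in WT d0 and 27.7 and 31 CPM at d4 (log2 fold change 2.00 ± 0.18 (SE), adjusted p = 1.8e-09). In K36M it began higher, at 25.5 and 23.7 CPM (log2 difference 1.74 ± 0.18 (SE), adjusted p = 4.2e-07), was still higher at d2 (0.65, ended without K36M d2 replicate 1 (0.61, adjusted p = 0.061) or WT d2 replicate 2 (0.58, adjusted p = 0.081)), and lay below WT at d4, d6 and d8 (-1.22, -2.85 and -2.19). Col4a3 and Col4a4, the chains of the mature glomerular network, stayed at or below 1.41 and 1.14 CPM in every library. For the class as a whole K36M had 2 lower and 1 higher of 6 at d2 and 4 lower and 0 higher at d4, d6 and d8. The shares over all genes were 10.4% lower and 9.74% higher at d2. From d4 to d8 they were 25.8% to 33.7% lower and 27.1% to 37.3% higher.

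Type VI collagen genes, whose chains form beaded filaments around cells, parted from each other. Col6a1 (chr10:76171537-76188913, minus strand) rose in WT as the fibrillar genes fell. WT levels of Col6a1 were 283 and 301 at d0, 431 and 424 at d2, 751 and 837 at d4, 658 and 672 at d6, 470.5 and 443 at d8, 64.9 and 102 in iPSCs and 298 and 261 in noOKSM MEFs, a log2 fold change of 1.44 ± 0.17 (SE), adjusted p = 2.0e-07 at d4. In K36M Col6a1 was 1044 and 1091 at d0, 869 and 838 at d2, 714 and 649 at d4, 63.8 and 90.9 at d6, 29.7 and 31.9 at d8, 92.4 and 116 in iPSCs and 724 and 524 in noOKSM MEFs. K36M was higher than WT at d0 (log2 difference 1.87 ± 0.18 (SE), adjusted p = 9.4e-08) and d2 (1.00, adjusted p = 0.00015), did not pass the test at d4 (-0.22, adjusted p = 0.29) and was lower at d6 (-3.10 ± 0.19 (SE), adjusted p = 1.7e-12) and d8.

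Col6a2 (chr10:76058507-76086375, minus strand), which lies near Col6a1, fell at d2 in WT. WT levels of Col6a2 were 137 and 149 at d0, 60.3 and 60.2 at d2, 97.1 and 103 at d4, 122 and 111 at d6, 107 and 99.1 at d8, 38.5 and 65.7 in iPSCs and 145 and 127 in noOKSM MEFs, and its K36M level 703 and 740.5 at d0, 124 and 121 at d2, 90.4 and 87.2 at d4, 28.5 and 23 at d6, 12.1 and 13 at d8, 58.8 and 70.7 in iPSCs and 576 and 424 in noOKSM MEFs. The K36M difference ran from 2.33 at d0 and 1.02 at d2 to -2.18 at d6 and -3.03 at d8 on the log2 scale (adjusted p = 3.0e-09, 9.2e-05, 2.9e-10 and 4.6e-12). Over d2 to d8 its difference of -1.10 did not pass (adjusted p = 0.058), in a fit that asks for 1 difference shared by all days.

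Col6a3 (chr1:92663435-92740529, minus strand), the longest chain of the trimer, fell in WT and further in K36M. WT levels of Col6a3 were 605 and 882 at d0, 349 and 319 at d2, 70.0 and 101 at d4, 99.6 and 86.2 at d6, 89.8 and 94.3 at d8, 45.9 and 79.7 in iPSCs and 1073 and 934 in noOKSM MEFs, and its K36M level 2120 and 2151 at d0, 204 and 219 at d2, 13.8 and 13.2 at d4, 2.27 and 2.13 at d6, 2.97 and 3.53 at d8, 67 and 89.4 in iPSCs and 1498 and 953 in noOKSM MEFs. K36M began higher (log2 difference 1.52 ± 0.23 (SE), adjusted p = 7.6e-05), was lower at d2 (-0.66 ± 0.23 (SE), adjusted p = 0.045) and reached -5.40 ± 0.32 (SE), adjusted p = 4.3e-12 at d6. The d2 call ended without any 1 of the 4 libraries compared (-0.72 to -0.59). Col6a5, a chain of the later type VI family, rose in WT from 0.107 and 0.051 CPM at d0 to 6.13 and 5.79 CPM at d2 (adjusted p = 1.1e-09, with 3 counts in both d0 libraries together), and K36M was at 7.27 and 7 CPM at d2. Col6a4 and Col6a6 stayed at or below 3.44 and 1.36 CPM in every library.

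Of the FACIT genes Col12a1, Col14a1 and Col16a1 fell in WT, while the type IX genes Col9a2 and Col9a3 rose. Col12a1 (chr9:79446798-79566638, minus strand), which coats type I fibrils in tendon and skin, was 1264 and 1840 at d0, 269 and 262 at d2, 79 and 109.7 at d4, 146 and 132 at d6, 132 and 148 at d8, 63.2 and 86.8 in iPSCs and 2341 and 2055 in noOKSM MEFs in WT. In K36M Col12a1 was 3545 and 3576 at d0, 141 and 156 at d2, 13.4 and 13.3 at d4, 4.31 and 6.1 at d6, 9.73 and 10.1 at d8, 69.3 and 89.6 in iPSCs and 1944 and 1357 in noOKSM MEFs. For Col12a1 the log2 difference was 1.20 ± 0.19 (SE), adjusted p = 0.00012 at d0 and -4.73 ± 0.24 (SE), adjusted p = 2.0e-13 at d6. Col16a1, found near type I fibrils and basement membranes, differed by -1.73 at d4 and -3.45 at d8 (adjusted p = 1.2e-07 and 1.0e-12), and Col14a1 by -1.31 at d8 (adjusted p = 0.0048), a call that ended without K36M d8 replicate 1 (-1.02, adjusted p = 0.072).

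Col22a1 (chr15:71626225-71864657, minus strand), a FACIT gene of tissue junctions, was higher in K36M on every reprogramming day. In WT it was 0.0537 and 0.051 at d0, 0.163 and 0 at d2, 0.159 and 0.19 at d4, 0.551 and 0.529 at d6, 1.74 and 1.26 at d8, 2.56 and 2.9 in iPSCs and 0.175 and 0.121 in noOKSM MEFs. In K36M Col22a1 was 0.223 and 0.0921 at d0, 0.736 and 1.03 at d2, 2.71 and 3.1 at d4, 5.6 and 3.37 at d6, 6.09 and 5.32 at d8, 3.06 and 2.86 in iPSCs and 0.635 and 0.726 in noOKSM MEFs. It was the largest rise of the other class over d2 to d8 (2.88 ± 0.32 (SE), adjusted p = 4.9e-06), at levels of at most 6.09 CPM. The type IX genes Col9a2 and Col9a3, which sit on cartilage fibrils, were also higher in K36M: Col9a3 stood at 1.96 and 1.62 CPM in WT d4 and 12.4 and 12.1 CPM in K36M d4, and Col9a2 at 0.83 and 1.02 CPM in WT d8 and 5.66 and 4.31 CPM in K36M d8. The log2 differences were 2.79 ± 0.19 (SE), adjusted p = 3.4e-11 and 2.40 ± 0.33 (SE), adjusted p = 1.9e-06. In iPSCs Col9a2 was at 13.1 and 12 CPM in WT and 13.9 and 15.3 CPM in K36M. The cartilage marker list (7 with a row, Acan and Sox9 among them) summed to 1.49 and 1.14 CPM in WT d4 and 7.33 and 6.71 CPM in K36M d4, and to 2.36 and 2.15 and 15.1 and 14.3 CPM at d8. Its part in these differences was not tested.

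The K36M differences of the 2 multiplexins had opposite signs on the reprogramming days, while at d0 and in noOKSM MEFs both genes were higher in K36M. Col18a1 (chr10:76514923-76629293, minus strand), whose C-terminal fragment is endostatin, was 49.8 and 62.7 at d0, 16.5 and 15.9 at d2, 37.5 and 41.4 at d4, 81.9 and 74.2 at d6, 90.7 and 92.4 at d8, 364 and 415 in iPSCs and 33.8 and 28.2 in noOKSM MEFs in WT. In K36M Col18a1 was 197 and 202 at d0, 51.8 and 45.8 at d2, 409 and 399 at d4, 469.5 and 351 at d6, 493 and 488 at d8, 444 and 428 in iPSCs and 199 and 157 in noOKSM MEFs. K36M was higher than WT at every stage tested except iPSC, and its libraries from d4 to d8 ran from 351 to 493 CPM, around the 364 to 444 CPM of all iPSC libraries. For Col18a1 the log2 difference was 1.83 ± 0.14 (SE), adjusted p = 3.2e-09 at d0, 1.59 ± 0.14 (SE), adjusted p = 2.2e-08 at d2, 3.35 ± 0.14 (SE), adjusted p = 8.9e-15 at d4 and 2.42 ± 0.14 (SE), adjusted p = 7.1e-13 at d8, and 0.16 in iPSCs (adjusted p = 0.72). In WT it fell at d2 and then rose, with a log2 fold change of 2.79 ± 0.14 (SE), adjusted p = 1.6e-14 from d0 to iPSC.

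Col18a1 has a pair of annotated start sites in the table of windows, which lie apart on the same strand and give proteins with different N-terminal ends. Gene counts do not tell transcripts from them apart. Both upstream windows are shown because the gene rises where most collagens fall (RefSeq, GRCm38.p6, minus strand, same motifs in capitals).
Col18a1 chr10:77113706-77113955: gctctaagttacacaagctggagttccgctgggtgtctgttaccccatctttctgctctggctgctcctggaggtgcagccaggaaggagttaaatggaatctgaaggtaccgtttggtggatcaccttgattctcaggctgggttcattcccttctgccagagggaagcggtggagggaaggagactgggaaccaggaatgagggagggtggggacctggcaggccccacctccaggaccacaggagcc
Col18a1 chr10:77166531-77166780: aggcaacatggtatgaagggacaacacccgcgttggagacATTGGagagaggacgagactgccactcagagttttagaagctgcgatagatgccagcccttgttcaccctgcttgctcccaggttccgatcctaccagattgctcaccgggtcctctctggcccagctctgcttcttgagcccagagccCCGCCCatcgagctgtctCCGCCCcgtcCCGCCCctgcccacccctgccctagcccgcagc
The first window holds none of the 3 motifs, and the second holds 1 CCAAT and 3 GGGCGG, all on the opposite strand to the one printed.

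Col15a1 (chr4:47221033-47326039, plus strand), the other multiplexin, bridges basement membrane and fibrils. It rose in WT and fell to at most 1.11 CPM in K36M at d6 and d8. WT levels of Col15a1 were 20.1 and 22.9 at d0, 34.3 and 31.8 at d2, 72.3 and 85.5 at d4, 51.3 and 44.6 at d6, 34.8 and 33.9 at d8, 11 and 15.4 in iPSCs and 20.6 and 16.5 in noOKSM MEFs, and its K36M level 58.8 and 58.8 at d0, 21.4 and 17.5 at d2, 4.08 and 2.91 at d4, 0.667 and 0.843 at d6, 0.671 and 1.11 at d8, 11.3 and 15.4 in iPSCs and 84 and 57.7 in noOKSM MEFs. For Col15a1 the log2 difference was 1.45 ± 0.18 (SE), adjusted p = 5.0e-06 at d0, -0.76 ± 0.18 (SE), adjusted p = 0.004 at d2, -4.50 ± 0.22 (SE), adjusted p = 1.3e-13 at d4 and -5.97 ± 0.27 (SE), adjusted p = 1.9e-14 at d6. Its d2 call ended without K36M d2 replicate 2 (-0.63, adjusted p = 0.076). Over d2 to d8 the difference was -4.12 ± 0.63 (SE), adjusted p = 7.6e-05, the largest fall of the other class.

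Col7a1 (chr9:108855631-108886920, plus strand), the anchoring fibril gene of skin, had the largest fall of the other class from WT d0 to iPSC. WT levels of Col7a1 were 619 and 719.9 at d0, 15.4 and 15.9 at d2, 12.5 and 15.1 at d4, 22.2 and 20.9 at d6, 40.1 and 34.4 at d8, 13.5 and 19.7 in iPSCs and 761 and 679 in noOKSM MEFs, a log2 fold change of -5.33 ± 0.19 (SE), adjusted p = 4.6e-17. In K36M Col7a1 was 783 and 823 at d0, 19.1 and 18.6 at d2, 14.4 and 13.6 at d4, 16.8 and 10.8 at d6, 21.1 and 20.5 at d8, 21.9 and 23.2 in iPSCs and 686 and 512 in noOKSM MEFs. The K36M difference from WT was small beside that fall, with log2 values of 0.01 at d4 (adjusted p = 0.98), -0.64 at d6 (adjusted p = 0.0029) and -0.84 at d8 (adjusted p = 0.00019). The d6 call ended without K36M d6 replicate 2 (-0.36, adjusted p = 0.11). Col8a1, of the hexagonal network around vessels, was lower in K36M (log2 difference -3.90 at d8, adjusted p = 6.7e-15). Col10a1, the type X chain of hypertrophic cartilage, was at 5.46 and 5.33 CPM in WT d4 and 0.64 and 0.751 CPM in K36M d4 (log2 difference -2.94 ± 0.25 (SE), adjusted p = 7.9e-10).

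Col13a1 (chr10:61300984-61441856, minus strand), a transmembrane collagen of adhesive junctions, was measured in iPSCs. Its fitted log2 change from WT d0 to iPSC, the highest of the other class, depends on how a group at 0 is fitted. WT libraries had 0 counts at every stage except iPSC, where they stood at 2.61 and 2.69 CPM. In K36M Col13a1 was 0.0447 and 0 at d0, 0 and 0 at d2, 0.0492 and 0.047 at d4, 0.222 and 0.0803 at d6, 0.384 and 0.29 at d8, 2.23 and 2.61 in iPSCs and 0 and 0 in noOKSM MEFs. Against the 3 counts over the group that a count of 0 allows, the WT iPSC level was at least 33.8-fold higher than at d0. K36M d8, with 8 and 6 counts, was at least 6.89-fold higher than WT d8 by the same floor. Col9a2 stood at 0.0537 and 0.102 CPM in WT d0 and 13.1 and 12 CPM in WT iPSC, so the order of these rises is not set. Col17a1, the hemidesmosome collagen of epithelia, peaked at different times: at 11.2 and 11.5 CPM in K36M d4 with 0.743 and 0.761 CPM in WT d4, and at 11.1 and 10.8 CPM in WT d8 with 1.49 and 1.74 CPM in K36M d8. For Col17a1 the log2 difference was 3.90 ± 0.20 (SE), adjusted p = 2.9e-13 at d4 and -2.76 ± 0.18 (SE), adjusted p = 1.2e-11 at d8.

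The remaining members were mostly of low level. Over the 28 libraries Col8a1 ran from 8.37 to 834 CPM, Col8a2 from 0.0444 to 18.9 CPM, Col14a1 from 0.321 to 92.7 CPM and Col16a1 from 2.56 to 277 CPM, all 4 highest in K36M noOKSM replicate 1. Col19a1 and Col20a1, both FACIT genes, stayed at or below 1.89 and 3.17 CPM. Col23a1 and Col25a1, transmembrane collagens of which Col25a1 is expressed in neurons and muscle, ran from 0.394 to 1.3 CPM and from 0.0501 to 9.55 CPM. Col28a1, a beaded filament type of peripheral nerve, ran from 0.0444 to 4.28 CPM. At d8 Col28a1 was lower in K36M (-1.92 ± 0.58 (SE), adjusted p = 0.007), and Col23a1 and Col25a1 were higher (0.75 and 2.01). For Col25a1 that rests on 18 and 15 counts in K36M d8 and 2 and 10 in WT d8. Its highest levels were in K36M d0, 9.55 and 9.53 CPM, with 1.18 and 1.99 CPM in WT d0. In noOKSM MEFs Col25a1 stood at 0.339 and 0.344 CPM in K36M and 0.594 and 0.484 CPM in WT. The call for Col28a1 ended without K36M d8 replicate 2 (-1.67, adjusted p = 0.064) or WT d8 replicate 2 (-1.59, adjusted p = 0.078), and that for Col23a1 without K36M d8 replicate 1 (0.73, adjusted p = 0.14) or K36M d8 replicate 2 (0.77, adjusted p = 0.11) or WT d8 replicate 2 (0.54, adjusted p = 0.26). Over the 26 others 4 were lower and 9 higher in K36M at d2, 6 and 7 at d4, 10 and 6 at d6, and 12 and 10 at d8. The shares over all genes were 10.4% lower and 9.74% higher at d2, 25.8% and 27.1% at d4, 33.7% and 37.3% at d6, and 29.0% and 31.6% at d8. The d4 counts lie near those shares and are no result about this class.

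**Figure D4:**
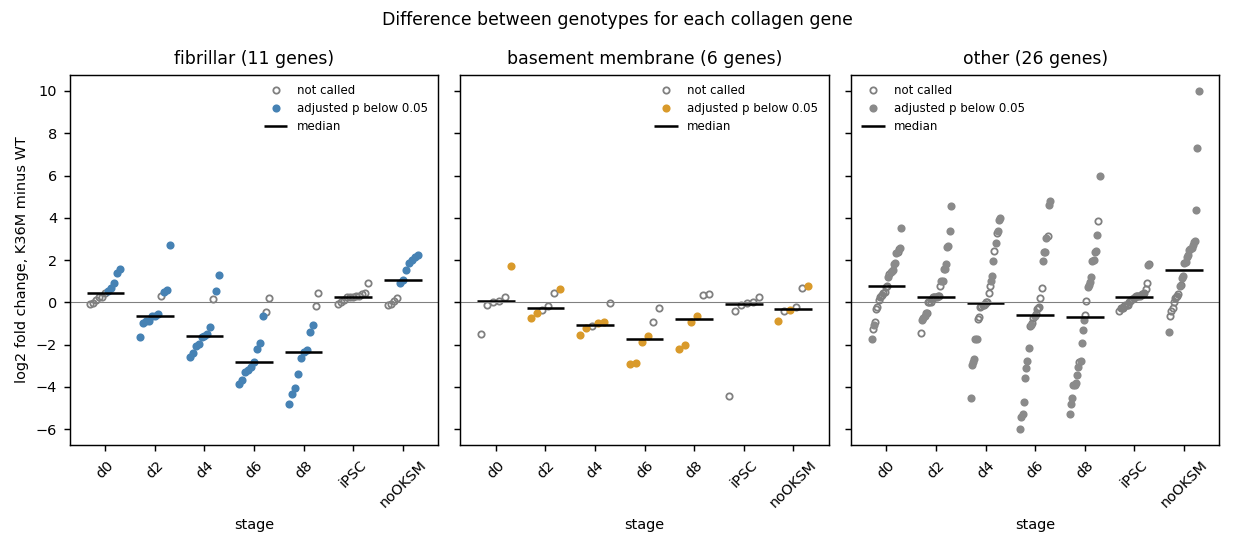
Log2 fold change of K36M minus WT for each gene at each stage, by class; filled dots passed at adjusted p below 0.05, open dots did not, and bars are class medians. Fibrillar medians go from 0.43 at d0 to -2.80 at d6, stand at 0.26 in iPSCs and at 1.08 in noOKSM MEFs; extreme values of the other class rest on genes with few counts.

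In fibroblasts, before and without OKSM, collagen differences ran the other way. At d0, 14 of 43 were higher in K36M and 2 lower (all genes 7.6% and 8.31%), and in noOKSM MEFs 24 were higher and 3 lower (all genes 18.2% and 16.7%). The median log2 difference over the 43 was 0.44 at d0 and 0.91 in noOKSM MEFs, beside 0.00 and 0.01 over all genes. Marker sums of other cell types differed between the same groups: the smooth muscle list stood at 22080 and 19370 CPM in WT d0 and 12980 and 13180 CPM in K36M d0, and at 22290 and 22960 CPM in WT noOKSM and 13610 and 15680 CPM in K36M noOKSM. The macrophage list summed to 53.1 and 48.9 CPM in WT d0 and 16.4 and 16.5 CPM in K36M d0, and to 14.2 and 15.1 CPM in WT noOKSM and 8.81 and 11.8 CPM in K36M noOKSM. The cartilage list went the other way, with sums of 20.5 and 21.3 CPM in WT d0 and 40.9 and 41.3 CPM in K36M d0. Matn1 and Lect1 were at 0 in both of these groups. The part of these lists in the collagen counts was not tested. These comparisons share no library. With library totals in place of TMM the noOKSM split was 4728 higher and 1648 lower over all genes and 25 and 1 over the collagens. Of the collagens higher at d0, 11 were also higher in noOKSM MEFs, which is 78.6% of the first list and 45.8% of the second, and over all genes the shares were 46.8% and 19.5%. Such shares depend on how many were called higher in noOKSM MEFs, 24 of 43 collagens and 18.2% of all genes. They are no result about collagens as a set. The noOKSM libraries carry another library series name than those of d0, and WT noOKSM against WT d0 gave 2 collagens higher and 4 lower (all genes 4.15% and 4.06%); without WT noOKSM replicate 2 the collagens called were 2.

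The genes called in both were spread over the classes. Col6a2 was at 137 and 149 CPM in WT d0 and 703 and 740.5 CPM in K36M d0, and at 145 and 127 and 576 and 424 CPM in noOKSM MEFs. Its log2 difference was 2.33 ± 0.17 (SE), adjusted p = 3.0e-09 at d0 and 1.88 ± 0.17 (SE), adjusted p = 1.1e-08 in noOKSM MEFs. Col18a1 differed by 2.52 in noOKSM MEFs (adjusted p = 5.1e-12), and Col5a3, a minor type V chain, by 1.38 at d0 and 2.01 in noOKSM MEFs (adjusted p = 2.4e-07 and 2.1e-10). The main type I and V genes did not pass in either, with Col1a1 at 0.25 and 0.22 (adjusted p = 0.45 and 0.42). At d0 that depended on the processing: Col1a1, Col1a2 and Col5a1 were called without the low count filter, and Col5a1 with DESeq2.

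The type IX genes Col9a1 and Col9a2 were at or near 0 in WT noOKSM MEFs and measured in both K36M libraries. Col9a1 was at 0.0699 and 0 CPM in WT and 6.48 and 7.19 CPM in K36M. Col9a2 had 0 counts in both WT noOKSM libraries and 5.97 and 5.01 CPM in K36M, at least 97.7-fold higher against 3 counts over the WT group. Col11a1 stood at 216 and 199.7 CPM in WT and 668 and 532 CPM in K36M (log2 difference 1.53 ± 0.17 (SE), adjusted p = 4.0e-07), and Col2a1 at 123 and 124 and 271 and 252 CPM (1.08 ± 0.17 (SE), adjusted p = 3.1e-05). The cartilage markers summed to 16.8 and 15.1 CPM in WT noOKSM and 25 and 22.3 CPM in K36M noOKSM, with Lect1 and Matn1 at or near 0, and the skeletal muscle list to 77.8 and 84.7 and 231 and 253 CPM. Of the skeletal muscle list, Myod1 and Myf5 were at 0 in both K36M noOKSM libraries, and Myf5 and Ckm in both WT noOKSM libraries. The fibroblast list was lower in K36M noOKSM (15710 and 14260 CPM, against 28520 and 25680 CPM in WT) and the epithelial list higher (237 and 278 against 51.9 and 58.4 CPM). Most of the first difference was in Fn1, with a mean of 16280 CPM in WT and 4331 CPM in K36M, while Pdgfra (means of 20.1 and 118 CPM) and Postn (1207 and 2192 CPM) were higher in K36M. The second was mainly in the keratins Krt8 (means of 0.487 and 93.6 CPM) and Krt18 (15.4 and 104 CPM), and the defining markers Cdh1 and Epcam stood at means of only 0.234 and 0.297 CPM in K36M. Their part in these differences was not tested. Of the type IV genes, Col4a1 was lower in K36M noOKSM MEFs (-0.36 ± 0.13 (SE), adjusted p = 0.031), and Col4a6 higher (0.76 ± 0.17 (SE), adjusted p = 0.00089). The Col4a1 call ended without K36M noOKSM replicate 2 (-0.18, adjusted p = 0.39) or WT noOKSM replicate 1 (-0.31, adjusted p = 0.16) or WT noOKSM replicate 2 (-0.40, adjusted p = 0.063).

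In iPSCs 1 collagen gene differed between the genotypes. Of the 43, 1 was higher in K36M and 0 lower, with 0.756% and 0.49% over all genes. The 1 gene was Col10a1, at 0.451 and 0.207 CPM in WT and 1.14 and 1.05 CPM in K36M (log2 difference 1.77 ± 0.38 (SE), adjusted p = 0.017). That call ended without K36M iPSC replicate 1 (1.71, adjusted p = 0.1) or K36M iPSC replicate 2 (1.82, adjusted p = 0.12) or WT iPSC replicate 2 (1.27, adjusted p = 0.21), and 4 collagens were called without WT iPSC replicate 2. The median over the 43 was 0.24, beside a value that rounds to 0 over all genes. The WT iPSC libraries differed from each other in Col1a1 (279.9 and 428 CPM) and spanned the K36M values. Fibrillar RNA in iPSCs lay above K36M d8: Col1a1 at 355 and 415 CPM against 32.3 and 39.2 CPM. The fibroblast markers summed to 2943 and 3341 CPM in K36M iPSC against 1137 and 1132 CPM in K36M d8, of which Fn1, which other cells also express, held a mean of 2462 and 982 CPM. The part of other cells in the iPSC libraries was not tested.

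Whether the K36M difference changed with stage was tested directly. In a joint test of the differences at d2, d4, d6, d8 and in iPSCs against that at d0, 35 of 43 collagens passed, among them all 11 fibrillar genes, 4 of 6 type IV genes and 20 of 26 others. Over all genes 75.8% passed, so the collagen count lies near that share and is no result about collagens as a set.

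Chains that assemble together did not stay in a fixed ratio, with 1 exception. Ratios are of CPM per kb of the longest coding transcript, and their absolute size depends on the gene model. Per length, Col1a1 to Col1a2 was 1.25 ± 0.121 (SD, n = 2) in WT d0, 0.21 ± 0.00337 at d2, 0.351 ± 0.0159 at d4, 0.59 ± 0.0379 at d8 and 0.807 ± 0.0189 in iPSCs. In K36M the ratio of Col1a1 to Col1a2 was 1.25 ± 0.043 at d0, 0.228 ± 0.000818 at d2, 0.757 ± 0.0267 at d4 and 0.991 ± 0.0408 at d8. The K36M ratio lay above that of WT in both libraries at d4 and d8. With all annotated exons as the length, the WT d0 ratio would read 2.57 instead, while its course in time is the same.

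Col4a1 to Col4a2 was the exception. The log2 CPM ratio covered only 0.62 over the 28 libraries, while each gene covered 4.97 and 4.92. Col4a5 to Col4a6, the other expressed head-to-head pair, covered 3.34, from 29 ± 7.84 per length in WT d0 to 3.42 ± 0.00125 in K36M d2. Col5a1 to Col5a2 covered 2.65 and Col6a1 to Col6a2 2.71. Col6a3 to Col6a2 had the widest range of the 6 pairs, 6.54 on the log2 scale, and was 0.424 ± 0.0138 per length in WT d6 and 0.0457 ± 0.00486 in K36M d6. These ratios are descriptions over libraries that share their scaling, with no test.

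**Figure D5:**
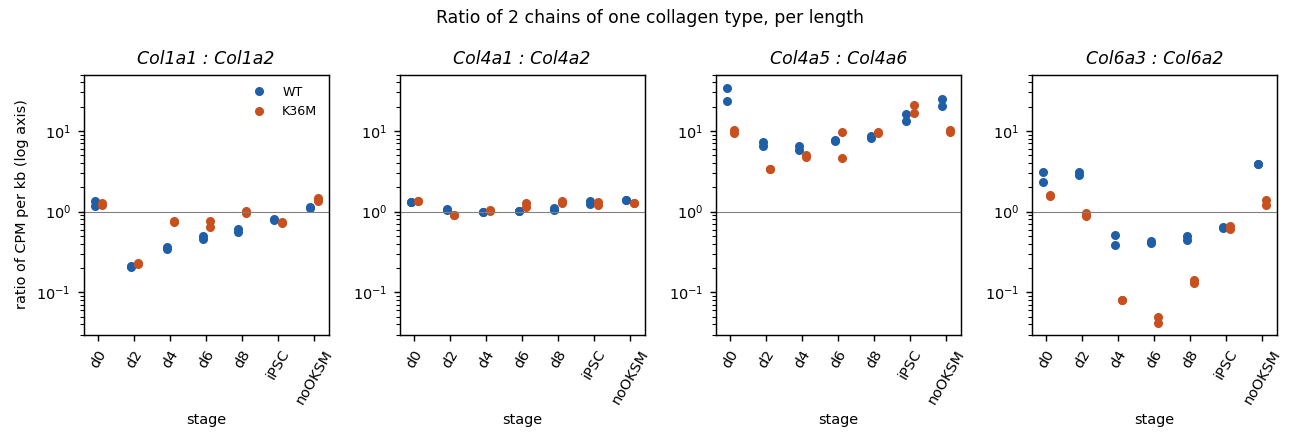
Ratio of CPM per kb of 2 chains of one collagen type by stage (log axis), 1 dot a library, WT in blue and K36M in orange, grey line at 1. Col4a1 to Col4a2 stays between 0.901 and 1.39 in all 28 libraries, while Col6a3 to Col6a2 goes from 3.93 down to 0.0423.

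Genes that process or bind collagen were counted in 5 lists over the same days. Over all genes 10.4% were lower and 9.74% higher in K36M at d2, 25.8% and then 27.1% at d4, 33.7% and 37.3% at d6, and 29.0% and 31.6% at d8, and the list counts stand beside those shares with no test. Of the 12 hydroxylation genes, 4 were lower and 0 higher at d2, 10 and 2 at d4, 8 and 1 at d6, and 8 and 4 at d8, with a median log2 difference of -0.74 at d8 in K36M against WT, where the median of all genes was 0.04. At d8 the largest changes were in P4ha3, a prolyl 4-hydroxylase subunit (-5.52), Leprel1 (-2.22) and Leprel2 (-2.09), both prolyl 3-hydroxylases, all on the log2 scale. The 4 higher genes were the lysyl hydroxylases Plod1 (1.38) and Plod2 (0.82) and the prolyl 4-hydroxylase subunits P4ha1 (0.62) and P4ha2 (0.52). Of 6 cross-linking genes, 5 were lower and 1 higher at d2, 5 and 1 at d4, 5 and 0 at d6, and 4 and 1 at d8, with a median log2 difference of -1.95 at d8. The lysyl oxidases Loxl3 (-5.25), Lox (-3.90) and Loxl1 (-2.17) changed most.

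Of 7 genes for folding, glycosylation and export, 4 were lower and 0 higher at d2, 6 and 0 at d4, 5 and 0 at d6, and 5 and 1 at d8, with a median log2 difference of -0.92 at d8. Glt25d2, a collagen galactosyltransferase, differed by -5.50 at d8, Fkbp14 by -2.85 and Fkbp10 by -1.11, both peptidyl-prolyl isomerases, and Serpinh1, the collagen chaperone HSP47, by -0.92. Of 7 tested genes for propeptide processing, 3 were lower and 2 higher at d2, 4 and 0 at d4, 5 and 1 at d6, and 5 and 2 at d8, with a median log2 difference of -0.85 at d8, led by the proteases Tll1 (-5.09) and Adamts2 (-3.19) and by Pcolce2 (-2.26), an enhancer of propeptide cleavage. Of 8 receptor and uptake genes, 1 was lower and 0 higher at d2, 4 and 1 at d4, 5 and 0 at d6, and 4 and 0 at d8, with a median log2 difference of -0.59 at d8, led by Ddr2 (-3.46), Itga11 (-2.998) and Mrc2 (-2.09). At d2 the receptor counts lie near the shares over all genes, and on the later days the calls were mostly lower. With 8 genes and no test, they are no result about that list.

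In iPSCs 1 gene of the 5 lists differed between the genotypes, the collagen receptor Ddr1 (log2 difference 0.44, all genes 0.756% higher and 0.49% lower). From WT d0 to WT iPSC all 12 hydroxylation genes, all 6 cross-linking genes and all 7 propeptide genes tested were lower. Of the 7 folding genes 5 were lower and 1 was higher, and 6 of 8 receptor genes were lower (all genes 37.4% lower and 40.1% higher). Serpinh1 fell by 4.40 on the log2 scale. In noOKSM MEFs the lists did not share a direction, with 5 hydroxylation genes higher in K36M and 2 lower. Of the propeptide genes 4 were higher and 1 lower, and of the cross-linking genes 0 were higher and 2 lower (all genes 18.2% higher and 16.7% lower).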

How the data were processed

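Gene counts of 28 poly(A) RNA libraries (2 in each of 14 groups) were taken as deposited by the authors, in 1 table of 37620 genes with no rows outside genes. Per the labels' protocols RNA was poly(A)-selected and made into stranded libraries with the NEBNext UltraDirectional kit. The submitters' processing notes name STAR 2.5.0, HTSeq 0.11.2, edgeR and mm9, with the annotation, strand setting and treatment of multiply mapped reads being not given in the sources used here. Library columns of iPSCs and noOKSM MEFs were matched by library number, genotype and replicate.

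Here edgeR 4.0.16 (R 4.3.3) fitted a robust quasi-likelihood model with TMM scaling to all 14 groups (16932 genes after filterByExpr with a minimum count of 10 and a minimum total of 15, 14 residual degrees of freedom), and a second with day as a factor to d2 to d8 (15954 genes, 11 degrees of freedom). P-values were adjusted by Benjamini-Hochberg over all genes tested, and calls made at adjusted p below 0.05. The spread of each gene was estimated over all groups together, so SEs and p-values do not follow a single group's own spread. Between the replicates of a group, chi-squared per degree of freedom over 5951 genes ran from 3.593 in K36M d0 to 134.1 in K36M d6. It was 66.8 in K36M noOKSM, 44 in WT d0 and 39.74 in WT d4. P-values that involve such groups may be too small. The steps were tested on simulated data. Alternatives were DESeq2 1.42.0, other scalings, no filter, a replicate block and single libraries left out. Coordinates and lengths come from GENCODE vM1 on mm9 (37205 gene IDs matched).

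Members and gene lists were chosen with earlier results of these data known. Libraries are given in full for the main chains of types I, III, IV, V, VI, XII and XVIII and for the largest rise or fall of each class over d2 to d8 or in WT iPSCs. Other members are given by ranges and by calls chosen for their size, and any further member, with Plod1, Plod2, P4ha1, P4ha2 and Serpinh1 of the lists, was chosen after its values were seen.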

Additional observations from a re-analysis of the deposited data

Results flagged for a closer look

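The K36M difference from WT changed between the stages d0, d2, d4, d6, d8 and iPSC for 35 of the 43 collagens in edgeR's joint quasi-likelihood test, beside 75.8% of all genes. The collagen count lies near that share and is no result about collagens as a set. Among the members followed in every library, the adjusted p of that test was 9.431e-11 for Col1a1, 7.157e-14 for Col1a2, 8.882e-11 for Col3a1, 1.209e-12 for Col5a1 and 3.401e-13 for Col5a2, whose differences at d8 were all below 0. For the type IV genes it was 1.968e-07 for Col4a1, 2.066e-07 for Col4a2 and 6.499e-08 for Col4a5. For type VI it was 2.717e-14 for Col6a1, 1.849e-13 for Col6a2 and 3.813e-12 for Col6a3, each higher in K36M at d0 and lower at d6. It was 5.834e-13 for Col12a1, with the same turn of sign, and 4.883e-11 for Col18a1, which was higher in K36M at d0 and on every reprogramming day.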

How the results depend on the processing

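Of 372 called log2 fold changes of single collagens, none changed sign under any alternative. RLE scaling ended 1 call, library totals without scaling 17, no low count filter 6, DESeq2 10, the replicate block 4, and leaving out 1 library 162, against 1638 that held. Without the d6 libraries 3 of 26 calls over d2 to d8 ended. The 15 counts of called collagens stayed within 1.5 times except the following, whose cause was not tested. Asking for at least a 2-fold change left 10 calls at d2 and 2 between WT noOKSM and WT d0, by construction. Without a low count filter there were 2 calls in iPSCs and 13 between WT noOKSM and WT d0. Leaving out single libraries gave 15 to 19 calls at d2, 0 to 4 in iPSCs and 2 to 5 between WT noOKSM and WT d0, where a lone library was assumed to vary like the other groups. Counts scaled by gene length gave lower shares of collagen at every stage: 1.19%, 0.238%, 0.181%, 0.203%, 0.2004%, 0.0976% and 1.13% in WT at d0, d2, d4, d6, d8, in iPSCs and in noOKSM MEFs, and 1.69%, 0.19%, 0.1097%, 0.0407%, 0.0652%, 0.112% and 1.28% in K36M. Chain ratios with all annotated exons as length were added after seeing the data. The replicate block gave 25 calls at d2 and 26 in noOKSM MEFs. Replicate numbers are not stated to pair libraries, and the deviations of same-numbered WT and K36M libraries correlated from -0.479 at d0 to 0.69 in noOKSM MEFs. With 2 libraries a group, differences of genes under about 1 CPM were not detectable with precision.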
